A study of Mus musculus with 65 samples.

Results

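Transcription of 9 Bcl2 family genes was followed in 4 PRO-seq experiments on MEL cells, a mouse erythroleukemia line whose corepressor Mtg16 (gene Cbfa2t3) carries an FKBP degradation tag. The genes were taken by name from the 15020 gene symbols of the gene tables and comprised the antiapoptotic Bcl2, Bcl2l1 and Mcl1, the effector Bak1, and the BH3-only genes Bcl2l11, Bid, Bad, Pmaip1 and Bik. PRO-seq labels RNA that engaged polymerases are making in isolated nuclei, so a value reports transcription and not the amount of mRNA or protein. All samples carried Mtg16-FKBP-2XHA, and the labels give a single such line, with no untagged cells. The time course held DMSO, 250 nM dTAGV1 (the degrader, which sends FKBP-tagged proteins to the proteasome) for 15 min, 30 min, 1 h and 2 h, and washout for 30 min, 1 h and 2 h after 2 h of degrader. In the A485 series, cells had DMSO, degrader, 10 µM A485 (which blocks the histone acetyltransferases CBP and p300) or degrader and A485 together, the agents for 15 min, 30 min or 1 h. The LBH589 series held DMSO and 30 min or 1 h of LBH589 at 5 nM (panobinostat, which blocks histone deacetylases) without degrader. In the LBH589 washout series, which had no DMSO group, cells with 2 h of degrader and LBH589 were washed for 30 min or 1 h, and the labels do not give the time of LBH589. Groups held 3 libraries, except 2 h of degrader, 30 min of A485 and 30 min of both agents with 2 each, and the washouts of the time course, of which 2, 1 and 2 libraries were used at 30 min, 1 h and 2 h.

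Bcl2 family proteins decide whether the outer mitochondrial membrane is opened during apoptosis. BAK, the product of Bak1, and its relative BAX form the openings, BCL2, BCL-XL (from Bcl2l1) and MCL1 hold them in check, and BH3-only proteins free or activate the effectors. BCL-XL is known for keeping maturing erythroid cells alive, and MCL1 for the survival of early blood progenitors. Mtg16 does not bind DNA itself, and reaches it through transcription factors such as E proteins, GATA1-TAL1 complexes and RUNX1, bringing histone deacetylases with it.

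Values are the deposited normalised read counts, and a change is a difference of group means of log2(value + 1) from limma, given with its standard error (SE). A gene was called at a Benjamini-Hochberg adjusted p under 0.05 over all genes of the table. Libraries held 7454000 to 62385000 reads in the gene tables, and a member had 52 to 29905 reads in a library. The scaling sets the typical gene at no change, so a change shared by most genes would not show. In bulk samples of this kind, fewer cells of a type and less RNA per cell cannot be told apart. Degrader and A485 changes of the A485 series share their DMSO libraries. The tagged gene itself, Cbfa2t3, is degraded as protein, so its transcription does not measure the loss of Mtg16, but it differed between the agents. In the A485 series it stood at 11270 ± 957 in DMSO, 50986 ± 1651 after 1 h of degrader and 662.2 ± 211.8 after 1 h of A485 (SD, n = 3 each). Of 10 erythroid marker genes, 8 were in the tables, and their DMSO means in the A485 series ran from 22.4 (Hbb-bt) to 2966 (Tal1), while the myeloid markers Ly6g and Mpo stood at 0 and 31.0. The erythroid markers moved with the agents: their summed level per library in that series was 11104 to 11475 in DMSO, 16465 to 16943 with 1 h of degrader, 3497 to 3933 with A485 and 4607 to 4793 with both. The summed level of 2 stromal markers, nearly all Vim, was 704.2 to 787.3 in DMSO, 316.8 to 349.2 with 1 h of degrader and 71.8 to 123.6 with A485, that of 3 of 4 megakaryocyte markers 2644 to 2857, 2589 to 3061 and 454.3 to 522.5, and that of 3 lymphoid markers 122.5 to 133.5, 190.9 to 202.1 and 178.0 to 229.0. The part of cell state in the members' changes was not tested. In the time course, the 5 libraries of 1 h and 2 h of degrader have library names that say degrader and titles that say A485, and they are given here by the library name. Their Bid values (2906 to 3382) lay above the DMSO values of the same table (1801 to 1863), whereas A485 gave values below DMSO in its own series. The same held for Cbfa2t3, at 153639 to 175797 in these 5 libraries and 19178 to 28757 in DMSO. A pair of time-course libraries stood apart from their group: over the 2000 most variable genes, degrader 15 min replicate 2 correlated at -0.28 with the rest of its group, and degrader 30 min replicate 3 at -0.19 with its own group and at 0.83 with the 30 min washout. In the account of single members, most changes at 15 min and 30 min of the time course are given with and without these libraries. Replicates are separate libraries by their labels, which do not say whether they came from separate cultures, so p-values measure the spread between libraries.

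The promoters of Bcl2l11, Bid and Mcl1 are shown first, so that the data can be read beside the sequence. Bcl2l11 and Bid were called higher at every degrader time of both experiments, and Mcl1 was called lower in the A485 series only. Promoters of other members, among them Bcl2l1, are described but not printed. RefSeq (GRCm38.p6) gave 250 bases before to 50 after the start for 7 of the 9 members (11 starts), and the sequences run 5′ to 3′ on the gene's strand. Letters in capitals mark matches, on either strand, to the GATA letters AGATAA or TGATAA, the E-box CAGNTG or the RUNX letters TGNGGT. N stands for any base, so these patterns are loose, and the marked matches did not overlap each other. Among 32851 promoters of this length, 18.6% held a GATA match, 51.4% an E-box and 45.8% a RUNX match. The outer start of Bcl2l11 (chr2:128125788-128126087, plus strand) held 1 E-box and 2 RUNX matches, and its inner start (chr2:128127325-128127624, plus strand) held 1 RUNX match. The Bid promoter (chr6:120916775-120917074, minus strand) held 1 match to the RUNX letters, which reads TGGGGT on the other strand. It rests on the free base of that pattern and shares bases with a match to the letters CACCC. Mcl1 (chr3:95658471-95658770, plus strand), whose values went the other way in the A485 series, held 0 GATA, E-box or RUNX matches, as did Bcl2. Bak1, not called at any degrader time, held 1 RUNX match, and Bad held 1 E-box at 1 start and 2 RUNX matches at the other. Bcl2l1 held 1 RUNX match and 1 E-box, at separate starts. ETS letters (CCGGAA) and CACCC were searched too and are not marked. Mcl1 held 2 ETS matches, and Bid and the outer Bcl2l11 start 1 each. Among the 11 starts the only GATA match was at 1 start of Bcl2l1. A match is only a run of letters, and no binding was measured.
Bcl2l11 outer start: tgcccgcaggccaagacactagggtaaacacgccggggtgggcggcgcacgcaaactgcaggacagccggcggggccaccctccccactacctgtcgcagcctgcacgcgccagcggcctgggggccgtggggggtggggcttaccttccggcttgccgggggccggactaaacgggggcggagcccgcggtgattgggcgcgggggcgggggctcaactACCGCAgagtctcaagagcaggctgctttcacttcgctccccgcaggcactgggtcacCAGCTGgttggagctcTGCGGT
Bcl2l11 inner start: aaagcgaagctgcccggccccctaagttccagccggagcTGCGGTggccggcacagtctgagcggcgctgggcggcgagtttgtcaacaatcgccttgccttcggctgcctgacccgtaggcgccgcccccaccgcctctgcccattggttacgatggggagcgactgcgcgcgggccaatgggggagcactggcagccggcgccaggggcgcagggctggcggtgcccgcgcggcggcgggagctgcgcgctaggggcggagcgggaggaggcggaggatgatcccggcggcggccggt
Bid: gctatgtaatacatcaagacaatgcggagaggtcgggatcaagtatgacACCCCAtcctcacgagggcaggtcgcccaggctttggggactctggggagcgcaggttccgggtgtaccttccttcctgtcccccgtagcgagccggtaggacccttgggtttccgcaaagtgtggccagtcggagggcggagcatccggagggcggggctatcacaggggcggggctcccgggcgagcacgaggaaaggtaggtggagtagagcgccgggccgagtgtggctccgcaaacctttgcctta
Mcl1: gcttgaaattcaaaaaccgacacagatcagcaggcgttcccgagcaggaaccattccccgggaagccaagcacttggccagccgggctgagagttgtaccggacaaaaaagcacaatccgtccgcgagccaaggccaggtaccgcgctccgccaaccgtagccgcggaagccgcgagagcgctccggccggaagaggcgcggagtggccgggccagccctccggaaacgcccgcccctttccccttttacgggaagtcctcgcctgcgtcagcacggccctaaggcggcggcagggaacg

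In untreated cells Mcl1 was the most densely transcribed member per length. Divided by the span of the RefSeq gene, its DMSO level in the A485 series was 426 ± 21.5 normalised counts per kb (SD, n = 3). Bcl2 followed at 84.4 ± 1.33 per kb, then Bad (62.6 ± 3.31), Bid (58.2 ± 0.939) and Bak1 (55.7 ± 2.197), 3 neighbours whose differences were within or close to their SDs. Lower levels per kb were those of Pmaip1 (35.4 ± 2.85), Bik (19.7 ± 1.42), Bcl2l11 (16.1 ± 0.0822) and Bcl2l1 (10.3 ± 0.484). In the LBH589 series, Bak1, Bid and Bad again lay close together in DMSO, at 65.7, 64.4 and 64.3 per kb. The time course put Bad (110 ± 7.12) and Bcl2 (102 ± 1.14) side by side below Mcl1 (653 ± 35.1). No source used here gives the part of each gene that was counted, so the order of levels between genes is approximate, while comparisons of a gene with itself do not depend on it.

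Loss of Mtg16 was followed first, and Bcl2l11, which encodes the BH3-only protein BIM, responded most of the 9 genes. Time-course normalised counts were 1468, 1338 and 1275 in DMSO and 2254, 3629 and 2184 after 15 min of degrader. At 30 min they were 3275, 3173 and 4087, at 1 h 3879, 4070 and 3947, and at 2 h 3993 and 3840. Every degrader library lay above every DMSO library, and the level changed little between 1 h and 2 h. Bcl2l11 rose by 0.94 ± 0.14 (log2, SE), 1.36 ± 0.14, 1.54 ± 0.14 and 1.53 ± 0.16 at the 4 times (limma adjusted p = 0.000338, 5.99e-06, 1.18e-06 and 7.63e-06). Without the libraries that stood apart the first 2 values were 0.71 ± 0.05 and 1.25 ± 0.05.

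The A485 series, with its own DMSO and degrader libraries, showed the same order of times for Bcl2l11. Counts were 591.1, 585.3 and 586.6 in DMSO, 1125, 1050 and 956.3 after 15 min, 1225, 1271 and 1232 after 30 min, and 1300, 1616 and 1461 after 1 h. The groups did not overlap with DMSO at any time. Bcl2l11 rose by 0.82 ± 0.07, 1.08 ± 0.07 and 1.30 ± 0.07 (log2, adjusted p = 4.95e-11, 6.03e-14 and 8.33e-17). At 1 h this was a 2.47-fold change here and a 2.92-fold change in the time course.

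Bid, a BH3-only protein that caspase cleavage activates, rose with the degrader as well, by less. Its counts in the A485 series were 1397, 1368 and 1412 in DMSO, 1597, 1545 and 1647 at 15 min, 1982, 1763 and 1803 at 30 min, and 1981, 2019 and 2125 at 1 h. No degrader library reached down to DMSO, and the rises were 0.20 ± 0.05, 0.41 ± 0.05 and 0.55 ± 0.05 (log2, adjusted p = 0.00886, 5.91e-07 and 7.28e-10). The 15 min call there was lost without degrader replicate 6 (0.17, adjusted p = 0.0526). In the time course Bid went from 1825, 1863 and 1801 in DMSO to 2970, 2977 and 2906 at 1 h and to 3251 and 3382 at 2 h. These were rises of 0.69 ± 0.11 and 0.86 ± 0.12 (log2, adjusted p = 0.000362 and 0.000163). At 15 min, replicate 2 held 3100 against 2132 and 2064 in the others, and Bid rose by 0.39 ± 0.11 (adjusted p = 0.0434), or by 0.20 ± 0.04 (adjusted p = 0.00214) without the libraries that stood apart. That 15 min call was lost when DMSO replicate 1, 2 or 3 was left out (adjusted p = 0.115, 0.109 and 0.126), and without the libraries of conflicting labels, which enter through the shared spread (adjusted p = 0.127), with only the groups compared (0.206) and with no minimum mean (0.0534). At 30 min the counts were 2401, 2491 and 2737, a rise of 0.47 ± 0.11 (adjusted p = 0.00908), or of 0.42 ± 0.04 without the libraries that stood apart.

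**Figure D1:**
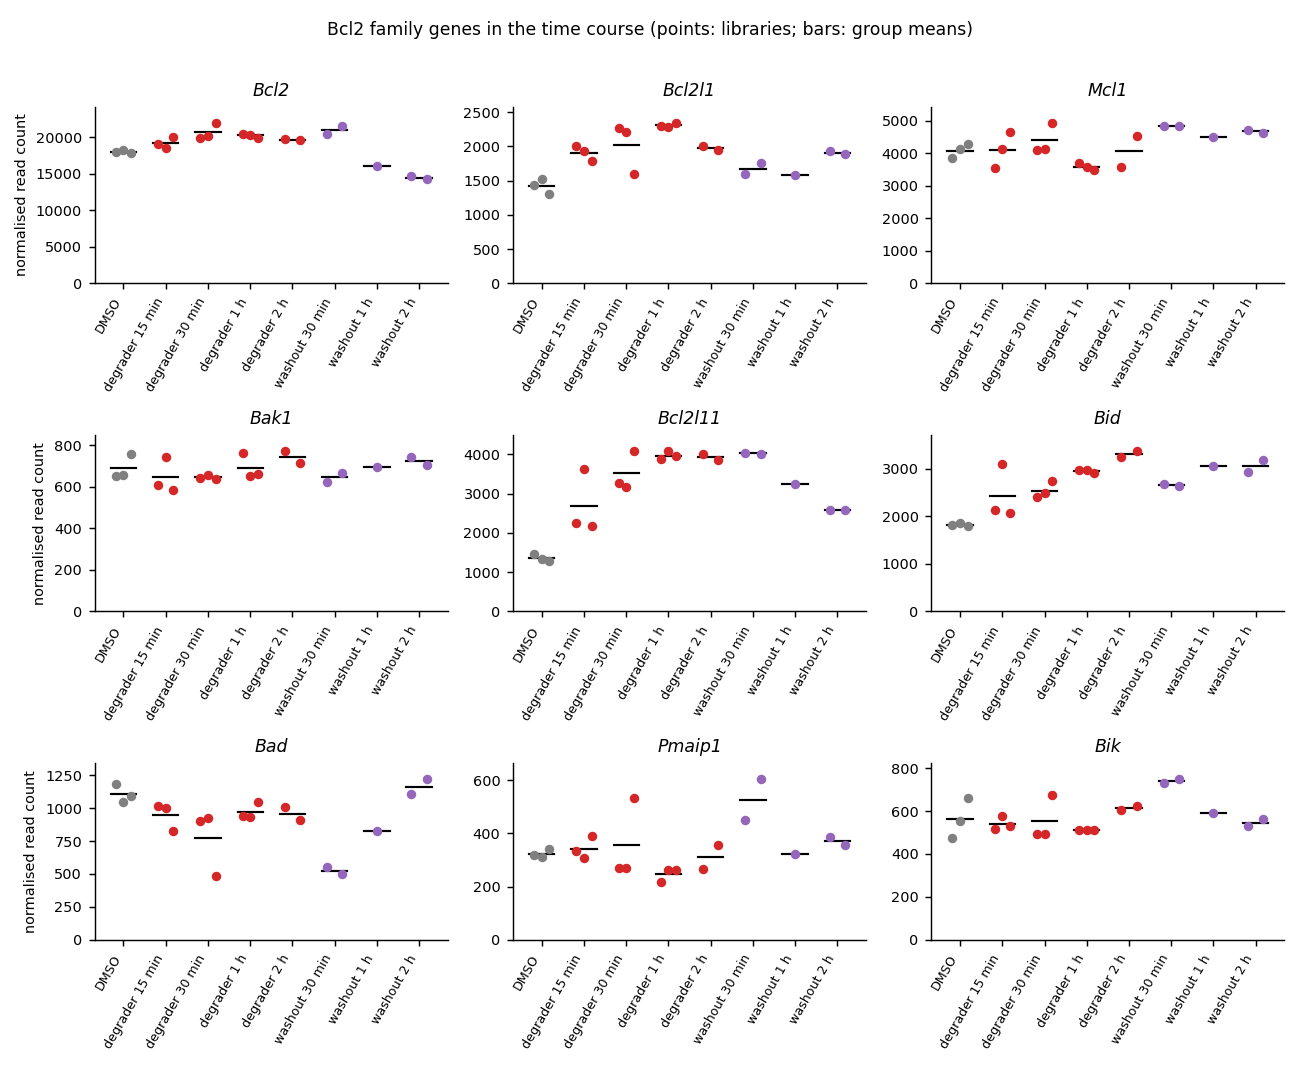
Normalised read count (vertical axis, from 0) of each member in each library of the time course, by group. Points are libraries and bars are group means, and 2 columns whose library was not settled are left out. Bcl2l11 stood at 1275 to 1468 in DMSO and at 3840 to 4070 in the 1 h and 2 h degrader libraries, and Bad and Pmaip1 of degrader 30 min replicate 3 (487.0 and 533.6) lay near the 30 min washout.

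Among the antiapoptotic genes, Bcl2l1 rose with the degrader in both experiments, called from 15 min in the time course and at 1 h in the A485 series. Its time-course counts were 1437, 1518 and 1308 in DMSO, 2011, 1931 and 1780 at 15 min, 2265, 2208 and 1595 at 30 min, 2304, 2290 and 2349 at 1 h, and 2001 and 1948 at 2 h. Bcl2l1 rose by 0.43 ± 0.10, 0.49 ± 0.10, 0.71 ± 0.10 and 0.48 ± 0.12 (log2, adjusted p = 0.0176, 0.00495, 0.000186 and 0.0146). The lowest 30 min library was replicate 3. Without the libraries that stood apart the change was 0.42 ± 0.06 at 15 min (adjusted p = 3.78e-05) and 0.66 ± 0.06 at 30 min. The 15 min call was lost without DMSO replicate 1 or 3, without degrader replicate 1 (adjusted p = 0.0502, 0.0950 and 0.0842) or without the libraries of conflicting labels (0.0686), the 30 min call when only the groups compared were fitted (0.136), and the 2 h call without DMSO replicate 3 or degrader replicate 1 or 2 (0.0684, 0.133 and 0.0958). In the A485 series Bcl2l1 had 800.7, 730.2 and 780.8 in DMSO, 756.5, 769.7 and 727.1 at 15 min, and 823.1, 840.1 and 825.9 at 30 min. Those changes were -0.04 ± 0.07 and 0.11 ± 0.07 and were not called. At 1 h its counts of 1024, 994.7 and 974.0 lay above all DMSO libraries, a rise of 0.37 ± 0.07 (adjusted p = 4.31e-05).

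Mcl1, whose short-lived protein guards against BAK, went down with the degrader in the A485 series. Counts were 2664, 2791 and 2523 in DMSO, 2256, 2331 and 2256 at 15 min, 2007, 2169 and 2111 at 30 min, and 2015, 1906 and 2065 at 1 h. All 9 degrader libraries lay below the DMSO libraries, and Mcl1 fell by 0.22 ± 0.05, 0.34 ± 0.05 and 0.41 ± 0.05 (log2, adjusted p = 0.000934, 1.38e-06 and 2.31e-08). Over the time course no Mcl1 change was called at any degrader time. Counts there were 3836, 4118 and 4267 in DMSO and 3690, 3564 and 3483 at 1 h, groups that did not overlap, with a change of -0.19 ± 0.10 (adjusted p = 0.288, or 0.00696 when only these groups were fitted). At 30 min the change was 0.10 ± 0.10, with counts of 4088, 4138 and 4939. Without the libraries that stood apart, Mcl1 changed by -0.01 ± 0.09 at 15 min and 0.02 ± 0.09 at 30 min. The tables were scaled separately, and the difference between the experiments was not tested.

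Bcl2 itself, the founding antiapoptotic gene, moved little. Its counts in the time course were 17995, 18204 and 17802 in DMSO and 20424, 20342 and 19937 at 1 h, without overlap. Bcl2 rose by 0.20 ± 0.05 at 30 min and 0.17 ± 0.05 at 1 h (log2, adjusted p = 0.00929 and 0.0234), and the changes at 15 min and 2 h, 0.09 ± 0.05 and 0.13 ± 0.05, were not called. The 30 min call was lost when only the groups compared were fitted (adjusted p = 0.123), and the 1 h call when any 1 of its 6 libraries was left out (0.0524 to 0.0910). Without the libraries that stood apart Bcl2 was called at 15 min too (0.12, adjusted p = 0.0131), and at 2 h (adjusted p = 0.00724), and its 30 min change was 0.15 ± 0.03. In the A485 series the counts were 14706, 15131 and 14746 in DMSO and 15757, 15774 and 16168 at 30 min, a rise of 0.10 ± 0.03 (adjusted p = 0.0214). This call was lost without DMSO replicate 4 or 6 or degrader replicate 6 (adjusted p = 0.0843, 0.0718 and 0.0912), and at 1 h the change was 0.01 ± 0.03 (95% interval -0.06 to 0.07).

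Bad, a BH3-only gene that growth-factor signals hold inactive at the protein level, had opposite signs in the experiments. In the time course its counts were 1186, 1044 and 1096 in DMSO, 1013, 999.6 and 827.5 at 15 min, and 902.4, 928.8 and 487.0 at 30 min. The 15 min change of -0.23 ± 0.18 was not called, but was at -0.27 ± 0.09 (adjusted p = 0.0208) without the libraries that stood apart. Bad fell by 0.58 ± 0.18 at 30 min (adjusted p = 0.0401), or by 0.27 ± 0.09 (adjusted p = 0.0259) without the libraries that stood apart. That call was lost without DMSO replicate 1, 2 or 3 (adjusted p = 0.118, 0.0760 and 0.103), without degrader replicate 3 alone (0.0702, the change then being -0.27), without the libraries of conflicting labels (0.0968), with only the groups compared (0.252) and in edgeR (0.0621). At 1 h and 2 h the time-course changes of Bad were -0.19 ± 0.18 and -0.21 ± 0.20 and were not called, the first passing when only the groups compared were fitted (adjusted p = 0.0453). In the A485 series Bad had 610.0, 609.3 and 667.3 in DMSO and 732.7, 720.8 and 707.3 at 1 h, without overlap, and rose by 0.20 ± 0.06 (adjusted p = 0.00896, or 0.0510 without DMSO replicate 4).

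Bak1, Pmaip1 and Bik had no call at any degrader time in either experiment. Bak1, the effector, had 496.2, 470.1 and 508.0 in DMSO and 502.3, 542.3 and 578.7 after 1 h in the A485 series, groups that overlapped, with a change of 0.14 ± 0.08 (95% interval -0.03 to 0.31). Pmaip1, which encodes the MCL1-binding protein NOXA, had 236.8, 232.8 and 268.9 in DMSO and 206.9, 198.7 and 200.1 at 1 h. These groups did not overlap, and the change of -0.28 ± 0.12 missed the threshold in limma (adjusted p = 0.0804) and passed it in edgeR (0.0339) and DESeq2 (0.0463). Time-course counts of Pmaip1 were 319.7, 310.1 and 342.1 in DMSO and 217.8, 262.3 and 261.7 at 1 h, with a change of -0.39 ± 0.21 (adjusted p = 0.299, or 0.0169 without the libraries that stood apart and 0.0119 with only the groups compared). At 30 min of the time course Pmaip1 changed by 0.06 ± 0.21, or by -0.26 ± 0.13 without the libraries that stood apart, Bik by -0.03 ± 0.12 or -0.18 ± 0.10, and Bak1 at 15 min by -0.10 ± 0.10 or -0.21 ± 0.08, none of them called. Bik changed by 0.13 ± 0.08 at 1 h in the A485 series and by -0.13 ± 0.12 in the time course, with overlapping groups in both.

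Counted over the members, 3, 5, 4 and 3 of 9 were called at 15 min, 30 min, 1 h and 2 h of the time course, where 6.93%, 13.9%, 11.3% and 9.39% of all genes were called. In the A485 series 3, 4 and 5 of 9 were called at 15 min, 30 min and 1 h, against 16.7%, 20.6% and 25.6% of all genes. The median change of the members at 1 h was 0.14 in the A485 series and 0.00 in the time course, beside 0.00 and -0.01 for all genes. The called members were of both kinds, with Bcl2l11 and Bid of the BH3-only genes and Bcl2l1 of the antiapoptotic genes higher at 1 h in each experiment. Mcl1, also antiapoptotic, was called lower at 1 h in the A485 series (-0.41). Of 4 other antiapoptotic genes tested there, 0 were called higher and 1 lower (median -0.55), a share near the 25.6% of all genes. At 15 min of the time course the count was 5 without the libraries that stood apart and 1 without those of conflicting labels or without DMSO replicate 1 or 3. In the time-course DMSO libraries the erythroid markers summed to 16095 to 17700, the megakaryocyte markers to 4826 to 5009 and the stromal markers to 1154 to 1193, and in the 1 h degrader libraries to 32430 to 33340, 6320 to 6430 and 481.0 to 559.5, and their part was not tested.

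Washout asked whether transcription returned once the degrader was removed after 2 h, and no group was washed without degrader before. Bcl2l11 was still high in the 30 min washout (4038 and 4010), stood at 3235 in the 1 library at 1 h and at 2569 and 2592 after 2 h. At 2 h both libraries lay between DMSO and the 2 h degrader. Bcl2l11 fell by 0.60 ± 0.17 against 2 h of degrader (adjusted p = 0.0271) and was 0.93 ± 0.16 above DMSO (adjusted p = 0.000439). The first of these calls was lost when any 1 of its 4 libraries was left out (adjusted p = 0.108 to 0.138). Bid had 2938 and 3179 at 2 h of washout, a change of -0.12 ± 0.13 against the 2 h degrader (95% interval -0.40 to 0.17), and was 0.74 ± 0.12 above DMSO (adjusted p = 0.000320). Bcl2l1, at 1928 and 1885, was 0.43 ± 0.12 above DMSO (adjusted p = 0.00954, or 0.0685 and 0.0545 without either washout library) and -0.05 ± 0.13 from the 2 h degrader.

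Bcl2 went below its starting level during washout. Its counts were 20372 and 21559 at 30 min, 16097 in the 1 library at 1 h and 14619 and 14244 at 2 h, under all DMSO libraries. Bcl2 fell by 0.44 ± 0.06 against 2 h of degrader (adjusted p = 0.000189) and by 0.32 ± 0.05 against DMSO (adjusted p = 0.000263). At 30 min of washout the calls were in other genes: Bad (549.2 and 502.4, against 1008 and 908.7 at 2 h of degrader) fell by 0.86 ± 0.22 (adjusted p = 0.0164), and Pmaip1 (450.7 and 605.3, against 264.8 and 358.0) rose by 0.76 ± 0.26 (adjusted p = 0.0454). Both of these calls were lost without any 1 of the 4 libraries (adjusted p = 0.0737 to 0.113 for Bad and 0.0822 to 0.280 for Pmaip1), and that of Pmaip1 with no minimum mean (0.0565). By 2 h Bad stood at 1106 and 1222, within reach of DMSO (0.07 ± 0.20). Of 9 members, 2 were called in the 30 min washout and 2 in the 2 h washout against 2 h of degrader, where 24.3% and 17.3% of all genes were called, and 4 at 2 h of washout against DMSO, against 38.5%. Without the libraries that stood apart 7 members were called at 30 min of washout, with the same group means and a smaller shared spread.

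A485 lowered most members, and did so within 15 min. Bcl2 counts were 14706, 15131 and 14746 in DMSO, 10596, 10854 and 10837 after 15 min of A485, 8070 and 7856 after 30 min, and 6460, 6526 and 7094 after 1 h. The groups stepped down without overlap. Bcl2 fell by 0.47 ± 0.03, 0.90 ± 0.03 and 1.15 ± 0.03 (log2, adjusted p = 7.31e-15, 1.17e-21 and 1.95e-26). Bid had 752.7, 773.8 and 791.4 at 15 min, 584.5 and 526.1 at 30 min and 528.3, 485.7 and 537.9 at 1 h, and its changes were -0.85 ± 0.05, -1.33 ± 0.06 and -1.43 ± 0.05 (log2, adjusted p = 2.05e-15, 1.31e-19 and 3.70e-22). Its change at 1 h was larger in size than that of any other member.

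Mcl1, Bcl2l1, Pmaip1 and Bcl2l11 fell as well. Mcl1 had 1809, 1757 and 1862 at 15 min and 1573, 1505 and 1432 at 1 h, falls of 0.55 ± 0.05 and 0.82 ± 0.05. Bcl2l1 fell by 0.42 ± 0.07 at 15 min and 0.66 ± 0.07 at 1 h, to 542.6, 484.3 and 437.9. Pmaip1, at 147.3, 142.6 and 138.0 after 15 min and 149.3, 135.1 and 110.8 after 1 h, fell by 0.78 ± 0.12 and 0.90 ± 0.12, with little further movement after 15 min. Bcl2l11 had 465.4, 484.6 and 515.5 at 15 min and 399.1, 409.6 and 401.6 at 1 h, and fell by 0.27 ± 0.07 and 0.54 ± 0.07.

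Bad and Bik rose under A485. Bad had 760.8, 764.8 and 740.3 at 15 min, 945.7 and 926.4 at 30 min and 864.2, 852.2 and 930.3 at 1 h, rises of 0.27 ± 0.06, 0.57 ± 0.06 and 0.49 ± 0.06. Bik, a BH3-only gene whose protein sits at the endoplasmic reticulum, had 359.7, 322.9 and 371.5 in DMSO and 490.4, 494.7 and 466.6 at 15 min, and rose by 0.46 ± 0.08, 0.60 ± 0.09 and 0.27 ± 0.08 at the 3 times. Bak1 was called only at 30 min (598.6 and 583.8, a rise of 0.27 ± 0.09, adjusted p = 0.0138, lost without DMSO replicate 5 at 0.0519 or A485 replicate 1 at 0.0825). The adjusted p-values of the calls without one here were at most 0.00445. The members called were 8, 9 and 8 of 9 at 15 min, 30 min and 1 h, where 55.1%, 58.1% and 62.6% of all genes were called. The members' median change was -0.42, -0.55 and -0.66 at these times, beside 0.00 for all genes at each. At 30 min and 1 h the A485 libraries are numbered 1 to 3 and the DMSO libraries 4 to 6, while the 15 min libraries share the DMSO numbers. The labels do not say whether the numbers mark a batch, and its part in the 30 min and 1 h results cannot be told apart from that of A485. The comparisons of both agents with A485 lie within 1 set of numbers.

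**Figure D2:**
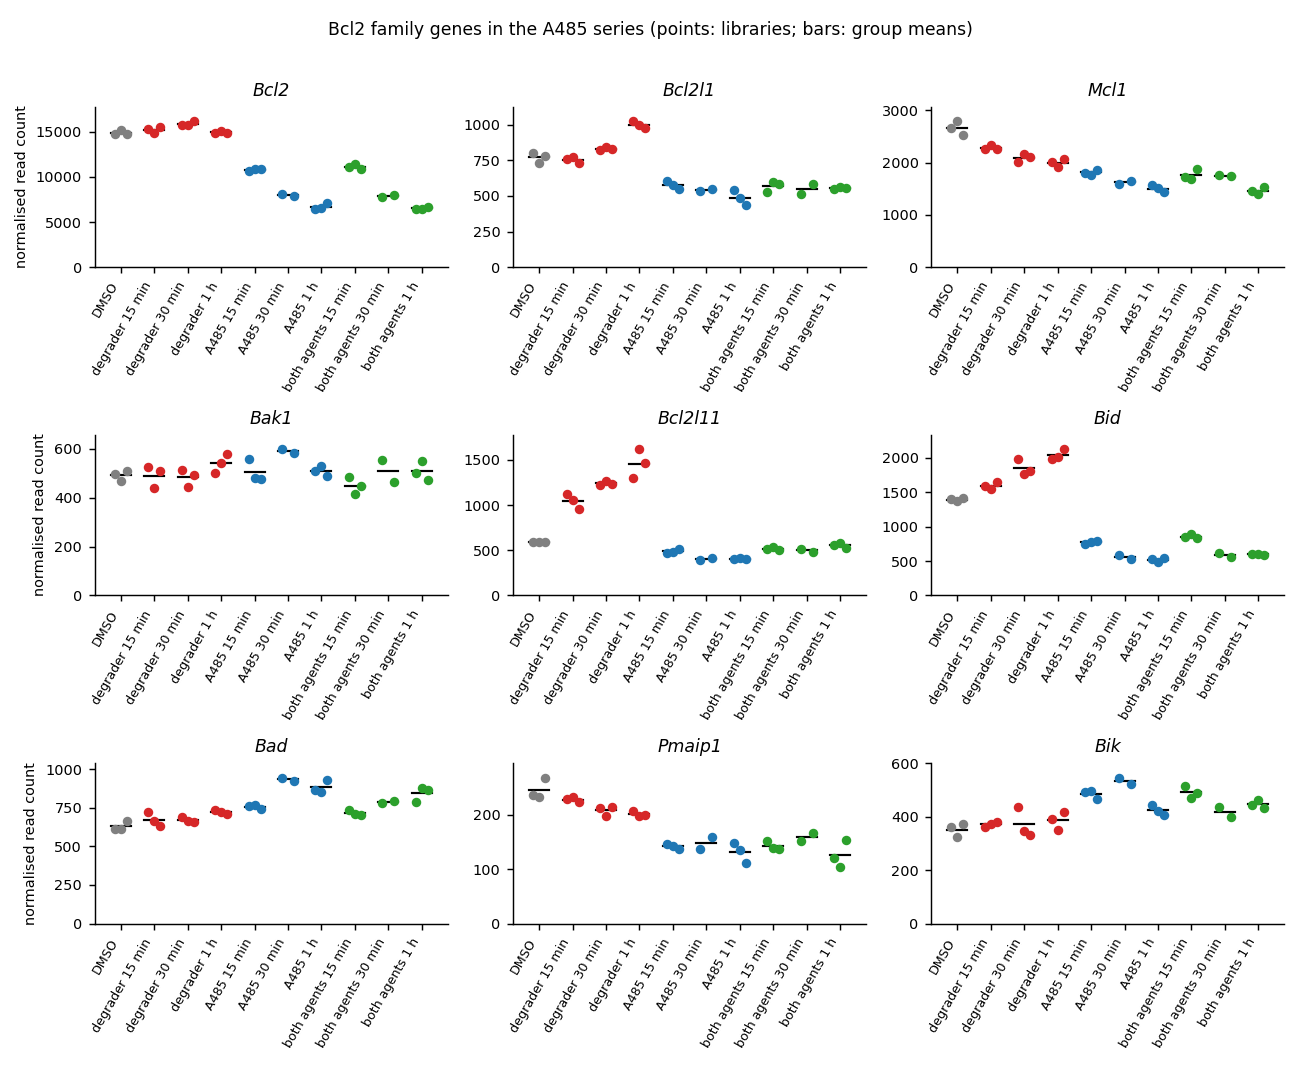
Normalised read count (vertical axis, from 0) of each member in each library of the A485 series, by group. Points are libraries and bars are group means. Bcl2l11 of the 1 h groups stood at 1300 to 1616 with the degrader, 399.1 to 409.6 with A485 and 520.1 to 576.6 with both agents.

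With A485 present, the degrader moved few members. Bcl2l11 had 509.2, 532.5 and 497.7 with both agents at 15 min, overlapping A485 alone, and a change against A485 of 0.07 ± 0.07 (95% interval -0.06 to 0.21). At 30 min it had 515.3 and 478.9 against 391.8 and 409.4, a change of 0.31 ± 0.08 (limma adjusted p = 0.0364), and at 1 h 560.4, 576.6 and 520.1 against 399.1, 409.6 and 401.6, a rise of 0.45 ± 0.07 (adjusted p = 1.05e-05). The groups were apart at 30 min and 1 h, and all libraries with both agents stayed below the DMSO libraries. The 30 min call was lost without any 1 of the 4 libraries (adjusted p = 0.0793 to 0.255), in edgeR (0.231), in DESeq2 (0.216) and with only the groups compared (0.252). Bid had 604.1, 607.2 and 580.8 with both agents at 1 h and rose by 0.21 ± 0.05 against A485 (adjusted p = 0.0125). That call was lost without A485 replicate 2 or the libraries of both agents 1 or 2 (adjusted p = 0.0830, 0.0521 and 0.0604), in edgeR (0.0625), in DESeq2 (0.0794) and with only the groups compared (0.170).

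For Bcl2l1 the change with both agents at 1 h was 0.19 ± 0.07 (adjusted p = 0.0766, or 0.00914 without A485 replicate 1). Of the 9 members 0, 1 and 2 were called against A485 at 15 min, 30 min and 1 h, where 0.881%, 1.81% and 6.9% of all genes were called. At 15 min, where limma called 0 members, 2 had an unadjusted p under 0.05, and edgeR and DESeq2 called 0 as well. At 30 min Bad, with a change of -0.25 ± 0.07, was just outside the threshold (adjusted p = 0.0524) and inside it with no minimum mean, with a minimum mean of 50 and under TMM scaling (0.0476, 0.0493 and 0.0423).

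Whether the response to the degrader differed with A485 was tested as an interaction, in which the degrader's change without A485 is subtracted from its change with A485. For Bcl2l11 it was -0.75 ± 0.09, -0.77 ± 0.10 and -0.85 ± 0.09 at 15 min, 30 min and 1 h (log2, adjusted p = 1.88e-06, 8.44e-06 and 1.30e-07). Bcl2l11 thus responded less with A485 at all 3 times. The Mcl1 response differed the other way, by 0.45 ± 0.07 at 30 min and 0.37 ± 0.07 at 1 h (adjusted p = 0.000149 and 0.000239): the fall seen with the degrader alone was not found against A485, where the Mcl1 changes were 0.11 ± 0.06 and -0.04 ± 0.05. The Bid interaction was -0.33 ± 0.08 at 30 min and -0.34 ± 0.08 at 1 h (adjusted p = 0.0137 and 0.00229), and the 30 min call was lost without A485 replicate 1 or both agents replicate 2 (0.118 and 0.106).

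For Bad the interaction was -0.34 ± 0.09 at 30 min and -0.26 ± 0.08 at 1 h (adjusted p = 0.0137 and 0.0278), and Bik had -0.42 ± 0.13 at 30 min (adjusted p = 0.0402). For Bad the 30 min call was lost without A485 replicate 1 (0.0567), and the 1 h call without DMSO replicate 4 or 5, degrader replicate 4, A485 replicate 3 or both agents replicate 1 (0.0609 to 0.103) or with only the groups compared (0.0615). The call of Bik was lost in edgeR (0.0562), in DESeq2 (0.0525), with only the groups compared (0.105), and without DMSO replicate 4 or 5, degrader replicate 4, A485 replicate 1 or 2 or both agents replicate 2 (0.0592 to 0.173). Among the members 1, 5 and 4 of 9 were called at the 3 times, where 5.32%, 8.2% and 11.5% of all genes were called. The count at 30 min was 2 without A485 replicate 1 and 3 without both agents replicate 2.

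**Figure D3:**
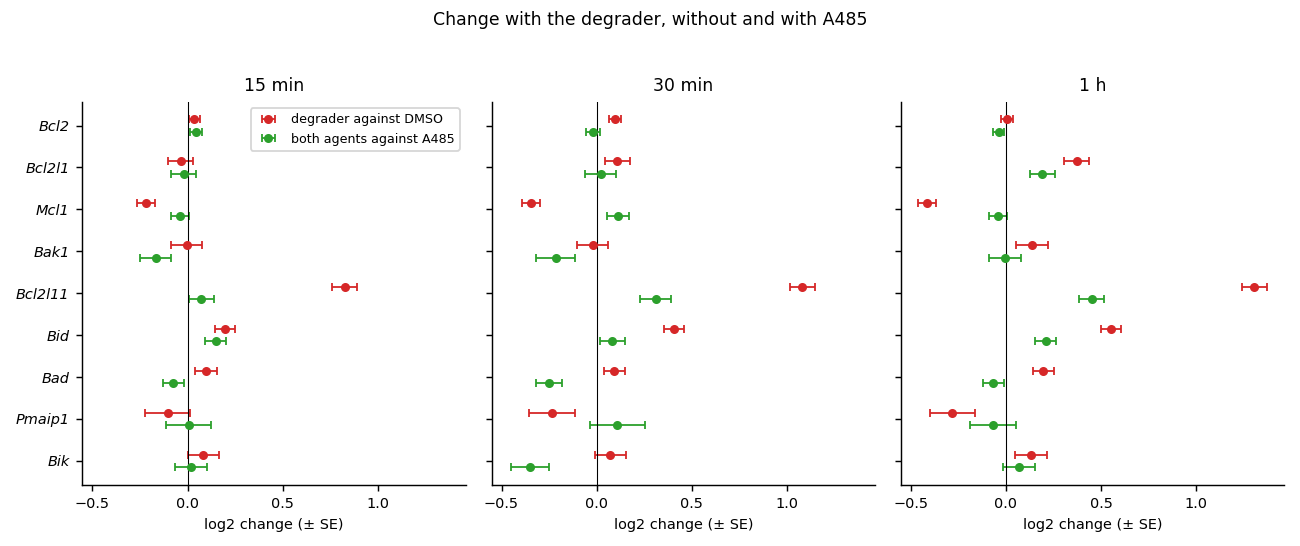
Change with the degrader (horizontal axis, log2 of value + 1) in the A485 series at 15 min, 30 min and 1 h, without A485 (red, against DMSO) and with it (green, both agents against A485). Points are limma estimates and lines are SE. The red and green points of Bcl2l11 lay 0.75, 0.77 and 0.85 apart.

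LBH589 lowered Bcl2, Bcl2l1 and Mcl1, the antiapoptotic members, and had raised 4 BH3-only members by 1 h, where 67% of all genes were called. Of 4 other antiapoptotic genes tested, 3 rose and 0 fell at 1 h, a share of calls near that of all genes. Their median was 0.54, with Bcl2l10 at 0.84 ± 0.15 and Bcl2a1b at 0.62 ± 0.10. Bcl2 had 14717, 14863 and 14696 in DMSO, 13617, 13185 and 13577 at 30 min and 9640, 10408 and 9922 at 1 h, and fell by 0.13 ± 0.03 and 0.56 ± 0.03 (log2, adjusted p = 0.00125 and 2.41e-15). Bcl2l1 had 1708, 1689 and 1667 in DMSO, 1339, 1361 and 1318 at 30 min and 1003, 1180 and 1095 at 1 h, falls of 0.33 ± 0.05 and 0.63 ± 0.05 (adjusted p = 2.58e-06 and 1.91e-12). In both genes the 3 groups were fully apart. Mcl1 had 3743, 3942 and 3970 in DMSO and 3281, 3195 and 3636 at 1 h, and fell by 0.22 ± 0.05 at 30 min and 0.21 ± 0.05 at 1 h (adjusted p = 0.000757 and 0.000495).

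Among the 9 members, Pmaip1 rose most at 1 h of LBH589. Its counts were 285.1, 304.3 and 303.1 in DMSO, 324.5, 352.4 and 367.3 at 30 min and 499.5, 458.3 and 533.8 at 1 h, rises of 0.22 ± 0.07 and 0.74 ± 0.07 (adjusted p = 0.0176 and 7.13e-10). The 30 min call was lost without DMSO replicate 7 or LBH589 replicate 2 or 3 (0.0750, 0.0531 and 0.0837). Bik had 401.2, 428.3 and 391.4 in DMSO and 541.3, 501.7 and 527.8 at 1 h, and rose by 0.36 ± 0.06 (adjusted p = 1.45e-05). Bcl2l11 first fell and then rose: it had 1099, 1025 and 1168 in DMSO, 886.5, 873.8 and 803.8 at 30 min and 1439, 1134 and 1260 at 1 h. The fall was 0.36 ± 0.06 (adjusted p = 4.15e-05) and the rise against DMSO 0.21 ± 0.06 (adjusted p = 0.00363), with overlapping groups at 1 h and the call lost without LBH589 replicate 1 (0.13, adjusted p = 0.0725).

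Bad fell by 0.32 ± 0.06 at 30 min (536.5, 516.4 and 503.0 against 668.3, 635.9 and 633.4, adjusted p = 5.16e-05) and was back at 687.1, 701.3 and 669.4 at 1 h. Bid rose by 0.13 ± 0.04 at 1 h (adjusted p = 0.0116, lost without DMSO replicate 8 or LBH589 replicate 1 at 0.0580 and 0.0634). Bak1 rose by 0.18 ± 0.06 at 30 min (adjusted p = 0.0206), a call lost without DMSO replicate 7 or 9 or LBH589 replicate 1 or 2 (0.0578 to 0.113), and its change at 1 h was 0.03 ± 0.06. At each time 7 of 9 members were called, where 39.7% and 67% of all genes were called. Marker sums per library in DMSO were 17610 to 18026 (erythroid), 4576 to 4817 (megakaryocyte), 96.9 to 118.0 (lymphoid) and 541.1 to 572.5 (stromal). At 1 h of LBH589 they were 13221 to 13521, 2776 to 2897, 178.7 to 199.6 and 775.4 to 866.6, and their part in the members' changes was not tested.

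In the LBH589 washout series the 1 h washout was compared with the 30 min washout, with no untreated cells beside them. Mcl1 had 2945, 3142 and 3182 at 30 min and 2091, 2216 and 1452 at 1 h, and fell by 0.71 ± 0.14 (adjusted p = 0.00754). Bcl2l1, at 846.0, 899.9 and 970.9 and then 682.6, 641.6 and 675.5, fell by 0.44 ± 0.09 (adjusted p = 0.00884). Bak1 went from 245.0, 268.6 and 223.5 to 359.0, 379.8 and 346.6, a rise of 0.56 ± 0.12 (adjusted p = 0.0106). All 3 genes had groups apart from each other. Bcl2l11 had 1005, 925.9 and 979.0 and then 1165, 1148 and 1577, a rise of 0.40 ± 0.12 (adjusted p = 0.0378), and Bik fell by 0.44 ± 0.12 (adjusted p = 0.0274). Of 9 members 5 were called, where 23.3% of all genes were called, but the count was 3, 2 and 1 without 30 min washout replicate 1, 2 and 3. Calls were lost for Bcl2l1 without 30 min replicate 2 or 3 (0.0519 and 0.0602), for Bak1 without 30 min replicate 3 (0.0626), for Bcl2l11 without any of the 3 30 min libraries (0.0880 to 0.142), and for Bik without any of these or 1 h replicate 1 or 2 (0.0527 to 0.121). The erythroid markers summed to 10168 to 10822 in the 30 min and 12146 to 12980 in the 1 h washout, and their part was not tested. Without 1 h replicate 2, Bcl2 (-0.26, adjusted p = 0.0462) and Bad (0.76, adjusted p = 0.0149) were called as well.

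**Figure D4:**
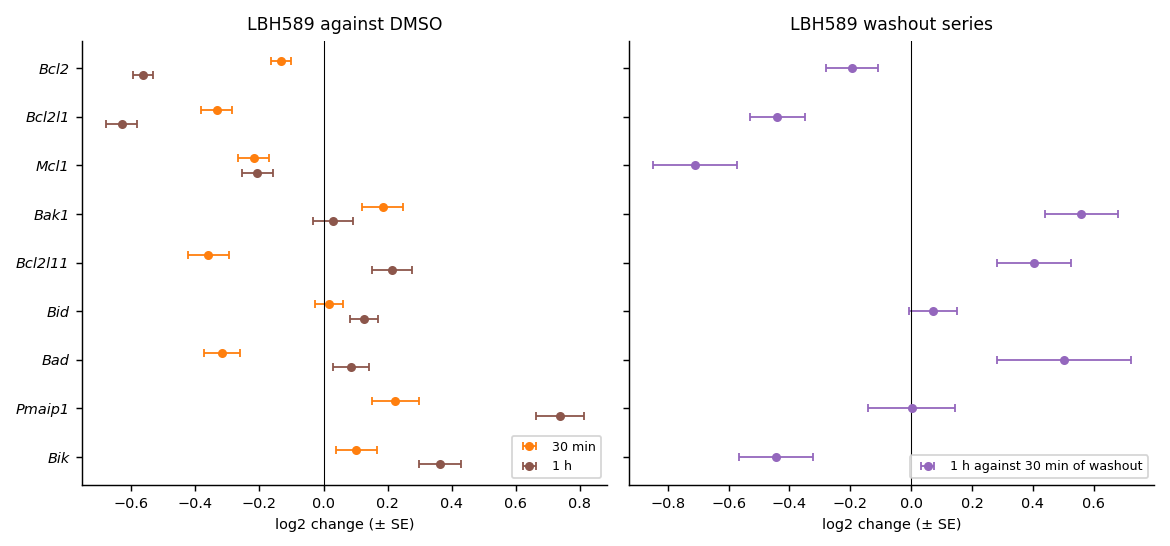
Change of each member (horizontal axis, log2 of value + 1) with 30 min and 1 h of LBH589 against DMSO (left), and in 1 h against 30 min of washout in the LBH589 washout series (right). Points are limma estimates and lines are SE. At 1 h of LBH589 Bcl2l1 was lowest at -0.63 and Pmaip1 highest at 0.74.

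Neighbouring genes were read to see whether the movement was of the member alone. In RefSeq GRCm38.p6 the gene Acoxl, an acyl-CoA oxidase-like gene, lies before Bcl2l11 on the same strand and overlaps its start by 215 bases. Acoxl had a mean of 121 ± 4.32 in DMSO, 464 ± 27.4 with 1 h of degrader, 68.8 ± 9.97 with A485 and 99.2 ± 21.5 with both agents (A485 series, SD, n = 3 each). It rose by 1.93 ± 0.17 with 1 h of degrader there (adjusted p = 5.32e-11) and by 2.87 ± 0.26 in the time course (adjusted p = 9.28e-07), and its interaction at 1 h was -1.42 ± 0.24 (adjusted p = 8.56e-05). Whether reads of Acoxl entered the count of Bcl2l11 was not tested, since no source used here gives strand use or the counted windows. Morrbid, a long noncoding RNA gene on the far side of Bcl2l11, at a distance of 136.115 kb, had a called but smaller rise of 0.20 ± 0.07 at 1 h in the A485 series (adjusted p = 0.0223) and changed by -0.26 ± 0.17 in the time course (adjusted p = 0.385).

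Next to Bid lies Bcl2l13, a Bcl2-like gene, with 0.276 kb between them. At 1 h of degrader Bcl2l13 rose by 0.31 ± 0.04 in the A485 series (adjusted p = 4.68e-08) and by 0.24 ± 0.07 in the time course (adjusted p = 0.0230), and fell by 0.58 ± 0.04 with 1 h of A485. In these 3 comparisons its direction was that of Bid, at smaller size, but with 1 h of LBH589, where Bid rose, Bcl2l13 fell by 0.13 ± 0.03 (adjusted p = 0.000936). With 15 min of A485, where Bid was already down, its change was -0.04 ± 0.04. On the other side of Bid, Mical3 changed by -1.62 ± 0.06 with 1 h of A485 and by 0.09 ± 0.06 with 1 h of degrader.

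The wider list of other apoptosis genes (84 names, 74 of them tested) was read in 1 h of each agent. With the degrader in the A485 series 11 rose and 17 fell, with a median of -0.08, where 25.6% of all genes were called. In the same series A485 raised 14 and lowered 32 (median -0.11), against 62.6% of all genes called, and LBH589 in its own series raised 32 and lowered 27 (median 0.03), against 67%. The list's share of calls under A485 was near that of all genes. Among 11 other BH3-only and related genes 4 rose and 0 fell with the degrader (25.6% of all genes called), led by Bmf, a BH3-only gene (0.82 ± 0.21, adjusted p = 0.00339), and the mitophagy gene Bnip3l (0.40 ± 0.07). Of 12 caspase and apoptosome genes 0 rose and 3 fell, Casp2 and Casp8 among them (-0.17 ± 0.06 and -0.15 ± 0.05), a share near the 25.6% of all genes. Marchf5, a mitochondrial ubiquitin ligase, rose by 0.92 ± 0.06 (901 ± 36.4 to 1708 ± 66.3, SD, n = 3 each) and Gata1, the erythroid master regulator, by 0.67 ± 0.09.

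Under A485 for 1 h, 13 of 19 regulators fell and 1 rose (62.6% of all genes called), with Gata1 (-3.30 ± 0.09) and the survival kinase gene Pim1 (-3.13 ± 0.11) the largest. Bbc3, which encodes the BH3-only protein PUMA, changed by -1.38 ± 0.15. The near-identical antiapoptotic copies Bcl2a1d and Bcl2a1b, whose reads may be shared, changed by -2.27 ± 0.36 and -1.70 ± 0.20, all 3 past the threshold. LBH589 for 1 h raised 9 of 12 caspase and apoptosome genes and lowered 2 (67% of all genes called), with Casp6 at 0.78 ± 0.09. It also raised Bnip3 by 1.496 ± 0.09 and Bmf by 1.11 ± 0.16, and lowered Pim1 by 0.81 ± 0.04. Bok, a BAX and BAK relative, rose by 1.17 ± 0.28.

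Finally, for each member the genes with the most similar group means over the 10 groups of the A485 series were listed among 10232 genes with a mean of at least 100. Bcl2l11 was most like E2f2 and Tmcc2 (Pearson r = 0.988 and 0.987), and Bid most like Acsl1 and Ramp1 (0.996 and 0.995). Bcl2 went with Dapp1 and Tex21 (0.997 for each), Bcl2l1 with Zfp362 and D030028A08Rik (0.99 for each), and Mcl1 with Cd86 and Srpk1 (0.98 for each). Pmaip1 went with Eno1 and Abhd17a (0.99 for each), Bad with Exoc7 and 5830444B04Rik (0.98 and 0.97), and Bik with Atrip and Dffb (0.97 and 0.96). Bak1 had the lowest such values, 0.88 with Fbxl22 and 0.85 with Rhno1. The 10 points share DMSO and the agents, and with so many genes high values are found for most patterns.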

How the data were processed

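PRO-seq values came as 1 gene table per experiment. Per the labels, the authors deposited counts normalized with DESeq2, treated here as signal. Tools named in the submitters' processing notes are featureCounts 2.0.1, DESeq2 1.46.0, HOMER, bedtools, SAMtools 1.16.1 and Bowtie2 2.2.2, with dm3 and mm39 as builds. No source used here gives strand use or any part of dm3 in the scaling. Dividing the deposited signal by each library's smallest step gave whole reads (tolerance 0.1), which is weaker evidence in libraries whose step is near 1. Among these were A485 series DMSO replicate 6 (0.996), LBH589 washout 30 min replicate 3 (1.01) and time-course degrader 30 min replicate 3 (1.01). These reads gave the depths, 7454000 to 62385000 reads.

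For each symbol the transcript of highest mean in the A485 series was taken, matched by transcript in the other tables. The test was limma's (version 3.58.1, R 4.3.3; lmFit, then eBayes allowing a trend), applied to log2(value + 1) of genes whose mean reached 10, all groups of a table sharing 1 spread, with Benjamini-Hochberg adjustment and a threshold of 0.05. Fold changes on this scale understate the change of low genes. Tables were scaled separately, and tests stayed within a table.

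Alternatives were edgeR 4.0.16 and DESeq2 1.42.0 on recovered reads, TMM scaling, other pseudocounts and minimums, only the groups compared, a replicate block and left-out libraries. Same-numbered libraries deviated together, with every correlation over 0.1, in 1 of the 13 comparisons with shared numbers, 1 h of degrader in the time course (0.13 to 0.18), where the block changed no member's call. 1 empty per-sample column was not used. Of the time course, 2 washout columns whose library could not be settled were left out, and 1 library at 1 h and 2 at 2 h of washout were used as group members without a number. The reading of columns was checked against the table of dREG sites (transcribed regulatory elements), which were not analysed further, since the gene tables give no coordinates to tie them to members. The limma script was tested on simulated data.

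All members were described, and genes of the wider list were named where they were called and among the 2 largest changes of their list at 1 h. One gene that met this rule is not reported here. Members and lists were chosen with earlier results of these data known.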

Additional observations from a re-analysis of the deposited data

Results flagged for a closer look

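Members whose response to the degrader differed with A485, by the interaction test, were Bcl2l11 at 15 min (-0.75), 30 min (-0.77) and 1 h (-0.85), Mcl1 at 30 min (0.45) and 1 h (0.37), Bid at 30 min (-0.33) and 1 h (-0.34), Bad at 30 min (-0.34) and 1 h (-0.26), and Bik at 30 min (-0.42), all on the log2 scale.

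Changes of Bad, Mcl1 and Bcl2l1 had opposite signs in the time course and the A485 series under the same degrader time. Every degrader library of one lay above its DMSO mean and every one of the other below. The differences between the experiments were not tested, since the tables were scaled separately. In no pair were both changes called in the main fit, and for Bad at 15 min neither was. Bad changed by -0.23 and 0.10 at 15 min, -0.58 and 0.0923 at 30 min, and -0.19 and 0.20 at 1 h (time course first). Mcl1 changed by 0.10 and -0.34 at 30 min. Bcl2l1 changed by 0.43 and -0.0362 at 15 min. The 15 min and 30 min values of the time course include degrader 15 min replicate 2 and degrader 30 min replicate 3, which stood apart from their groups.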

How the results depend on the processing

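Of 2969 values of single members under an alternative, 2809 kept their direction and side of the threshold or moved by less than their SE, 104 lost a call, 30 gained one, 26 moved further without a call, and 0 called values changed sign. Counts of called members that moved by over 1.5 times were these. With only the groups compared they were 2 at 30 min and 7 at 1 h of degrader in the time course, 6 and 4 in the 30 min and 2 h washout against 2 h of degrader, and 0 and 1 for both agents against A485 at 30 min and 1 h. Without the libraries that stood apart the count was 5 at 15 min of degrader and 7 in the 30 min washout, and without those of conflicting labels 1 at 15 min. With no minimum mean it was 1 in the 30 min washout and 2 for both agents at 30 min, where a minimum mean of 50 and TMM scaling also gave 2, edgeR and DESeq2 gave 0, and both gave 1 at 1 h. Leaving out 1 library gave 1 to 3 at 15 min of degrader in the time course, 0 to 0 in the 30 min washout, 1 to 1 in the 2 h washout against 2 h of degrader, 0 to 0 and 1 to 3 for both agents at 30 min and 1 h, 2 to 5 for the interaction at 30 min, and 1 to 6 in the LBH589 washout series. A group left with 1 library was taken to vary like the others. The cause of these moves was not tested.

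With the replicate number as a block, 0 members were called for both agents against A485 at 30 min (Bcl2l11, adjusted p = 0.0502), and Bid was not called at 15 min of degrader in the time course (adjusted p = 0.0662). The block changed no other call of a member. Of 10 comparisons with 3 pairs, each library correlated best with its own number in 1. A block could not be fitted for the 2 h washout, for A485 at 30 min and 1 h or for LBH589 against DMSO, which share too few numbers.

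Counts over all genes moved by over 1.5 times in these comparisons, from the main count to the lowest and highest. In the time course they were 881 (587 to 3536), 1764 (508 to 2679), 1432 (962 to 3843) and 1195 (547 to 3951) at 15 min, 30 min, 1 h and 2 h of degrader, and 3091 (0 to 6480), 2198 (614 to 6285) and 4897 (2550 to 7522) in the washouts. They were 2098 (1398 to 3534) for 15 min of degrader in the A485 series, 111 (71 to 158), 228 (102 to 447) and 869 (390 to 917) for both agents against A485, 670 (414 to 1227) and 1033 (498 to 1112) for the interaction at 15 min and 30 min, and 2879 (861 to 4492) in the LBH589 washout series. For both agents at 30 min 165 were higher and 63 lower, and in DESeq2 111 and 22. Other transcripts of Bak1 and Bcl2l11 had identical values, and the other members had 1 transcript. Reading the unsettled columns as the next library changed no member's call.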
